A study of Mus musculus with 32 samples.

Results

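Notch receptor, ligand and target RNA was examined in primary mouse melanomas with and without deletion of Cdh1, which encodes E-cadherin, a cell adhesion protein. The 10 genes were taken by symbol: the receptors Notch1, Notch2, Notch3 and Notch4, the ligands Jag1, Jag2, Dll1 and Dll4, and the targets Hes1 and Hey1. All 10 were found once among the 50600 genes of the tables and all 10 were expressed above the filter on low counts. The 32 tumours formed 4 groups of 8: Ecad females, Ecad males, ΔEcad females and ΔEcad males. Every mouse carried Tyr::NrasQ61K, an oncogene driven in melanocytes by the tyrosinase promoter, was Cdkn2a-/+ and was Cdh1F/F, that is, it carried floxed Cdh1. The Ecad label gave no further allele. The ΔEcad label gave Tyr::NRAS/° as its further allele, where the study's methods name a Cre recombinase under the tyrosinase promoter, which would delete Cdh1 in melanocytes only. The mice were of the C57BL/6J background, and neither their age nor the number of tumours per mouse was in the labels, so p-values measure the spread between tumours.

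Notch receptors are single-pass membrane proteins that bind Jagged or Delta-like ligands on a neighbouring cell. Binding allows ADAM metalloproteases and then gamma-secretase to cut the receptor, and the freed intracellular domain joins the DNA-binding protein RBPJ in the nucleus to switch on targets such as the repressors Hes1 and Hey1. In skin the pathway is known for keratinocyte differentiation and for upkeep of melanocyte stem cells, and in vessels Dll4 and Notch4 are known from endothelium and Notch3 from the mural cells that wrap it.

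Total counts per tumour ranged from 24036333 to 63923086. Cdh1, the targeted gene, was at 25.0 to 281.9 TPM (RNA abundance per length, scaled to the library) in Ecad males and at 0.79 to 65.2 TPM in ΔEcad males. In the libraries labelled ΔEcad female it spanned 0.17 to 143.2 TPM, beside 2.16 to 151.2 TPM for Ecad females. The medians of ΔEcad and Ecad tumours were 3.285 and 144.6 TPM in males and 46.7 and 30.6 TPM in females. Cdh1 RNA of bulk tissue thus overlapped between the genotypes in both sexes, and the genotype was taken from the label. Of the 16 libraries labelled male, ΔEcad male 2 had 0 counts of 4 Y-linked genes and 6.41 TPM of Xist, the RNA of the inactive X chromosome, against a group median of 0.01 TPM. ΔEcad male 7 had 4.98 TPM of Dct, a melanocytic enzyme gene, against a group median of 10640 TPM. ΔEcad female 3 had 0.02 TPM of Cdh5, the cadherin gene of endothelium, against a group median of 47.7 TPM. These 3 tumours were kept. Of the libraries labelled female, ΔEcad female 1 had 92 counts of the 4 Y-linked genes and was kept too. The other female libraries had at most 4.

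The promoters of 1 receptor and 2 ligands are shown because the marker list followed most closely differed between these genes. It was the mural list for Notch3, the endothelial list for Dll4 and the keratinocyte list for Dll1. Dll4 and Dll1 also followed the mural list, so the lists followed were not separate. Of the 10 genes, 8 had an entry among the RefSeq promoters (GRCm38.p6), and Hes1 and Hey1 had none. Each line gives the 250 bases before the RefSeq start, 5′ to 3′ on the strand of the gene, with capitals for GGGCGG (a GC box) and for TGANTCA (the site of AP-1 factors), each searched on both strands, where the capitals can show the reverse complement. Notch3 is at chr17:32166891-32167140 on the minus strand, 38 bases before the annotated gene. Dll1 is at chr17:15376933-15377182 on the minus strand, 60 bases before it. Dll4 is at chr2:119325534-119325783 on the plus strand and ends at its start.
Notch3: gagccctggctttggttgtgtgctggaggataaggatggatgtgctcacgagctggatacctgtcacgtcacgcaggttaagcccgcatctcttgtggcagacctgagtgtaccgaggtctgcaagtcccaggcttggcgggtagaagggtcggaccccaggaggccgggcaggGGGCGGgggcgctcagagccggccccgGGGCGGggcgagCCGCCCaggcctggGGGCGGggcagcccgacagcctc
Dll1: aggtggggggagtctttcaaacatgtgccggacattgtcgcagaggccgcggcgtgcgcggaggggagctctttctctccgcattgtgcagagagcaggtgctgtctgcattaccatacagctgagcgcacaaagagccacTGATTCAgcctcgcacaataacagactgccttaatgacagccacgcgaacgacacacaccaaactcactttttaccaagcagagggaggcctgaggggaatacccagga
Dll4: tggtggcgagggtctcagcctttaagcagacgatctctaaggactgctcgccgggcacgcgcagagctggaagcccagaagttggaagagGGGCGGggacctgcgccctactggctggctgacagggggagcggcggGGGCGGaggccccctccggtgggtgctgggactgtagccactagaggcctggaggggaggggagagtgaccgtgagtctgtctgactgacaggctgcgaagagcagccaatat
Notch3 held 4 GC boxes, Dll4 held 2 and this Dll1 promoter held 1 AP-1 match, while 32.7% of all 32851 promoters held a GC box and 6.75% an AP-1 match in the same window. The other Dll1 promoter and that of Jag2 held 0 AP-1 matches. Notch1, Notch2 and Jag2 held 5 GC boxes each. The letters TGGGAA, the core bound by RBPJ, were in none of the 9 promoters of the 8 genes, against 21.6% of all promoters, which says only that the letters were not in these windows.

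Hes1 had the highest level of the 10 genes, with 27.3 TPM in the lowest tumour, a median of 88.7 TPM and 132.8 TPM in the highest. It was above each of the other 9 genes in every tumour except for Notch2, which was higher than Hes1 in 2 of the 32. Hey1, the other target, was among the lowest, from 0.66 to 7.21 TPM with a median of 2.55 TPM. It could not be placed against Dll1, which was higher in 15 tumours and lower in 17.

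Among the receptors the median over all tumours was 16.6 TPM for Notch1, 9.92 TPM for Notch2, 6.22 TPM for Notch3 and 5.15 TPM for Notch4. Notch1 was above Notch4 in all 32 tumours and above Notch2 in 22. Neighbours below it in this order changed places: Notch2 was above Notch3 in 18 tumours and Notch3 above Notch4 in 20. Notch1 was the most abundant receptor in 20 tumours, among them 7 of the 8 ΔEcad females, Notch2 was in 10 and Notch3 in 2, both of them Ecad males.

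Among the ligands the median was 11.1 TPM for Jag1, 7.545 TPM for Dll4, 3.585 TPM for Jag2 and 1.765 TPM for Dll1. Jag1 was the leading ligand in 13 tumours, Jag2 in 11 and Dll4 in 8. Dll1 led in none. Jag2 ranged from 0.48 to 86.2 TPM and Dll4 from 0.04 to 14.6 TPM. Summed over the 4 ligands, the median was 16.1 TPM in Ecad females, 43.2 TPM in ΔEcad females, 53.1 TPM in Ecad males and 21.3 TPM in ΔEcad males.

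**Figure D1:**
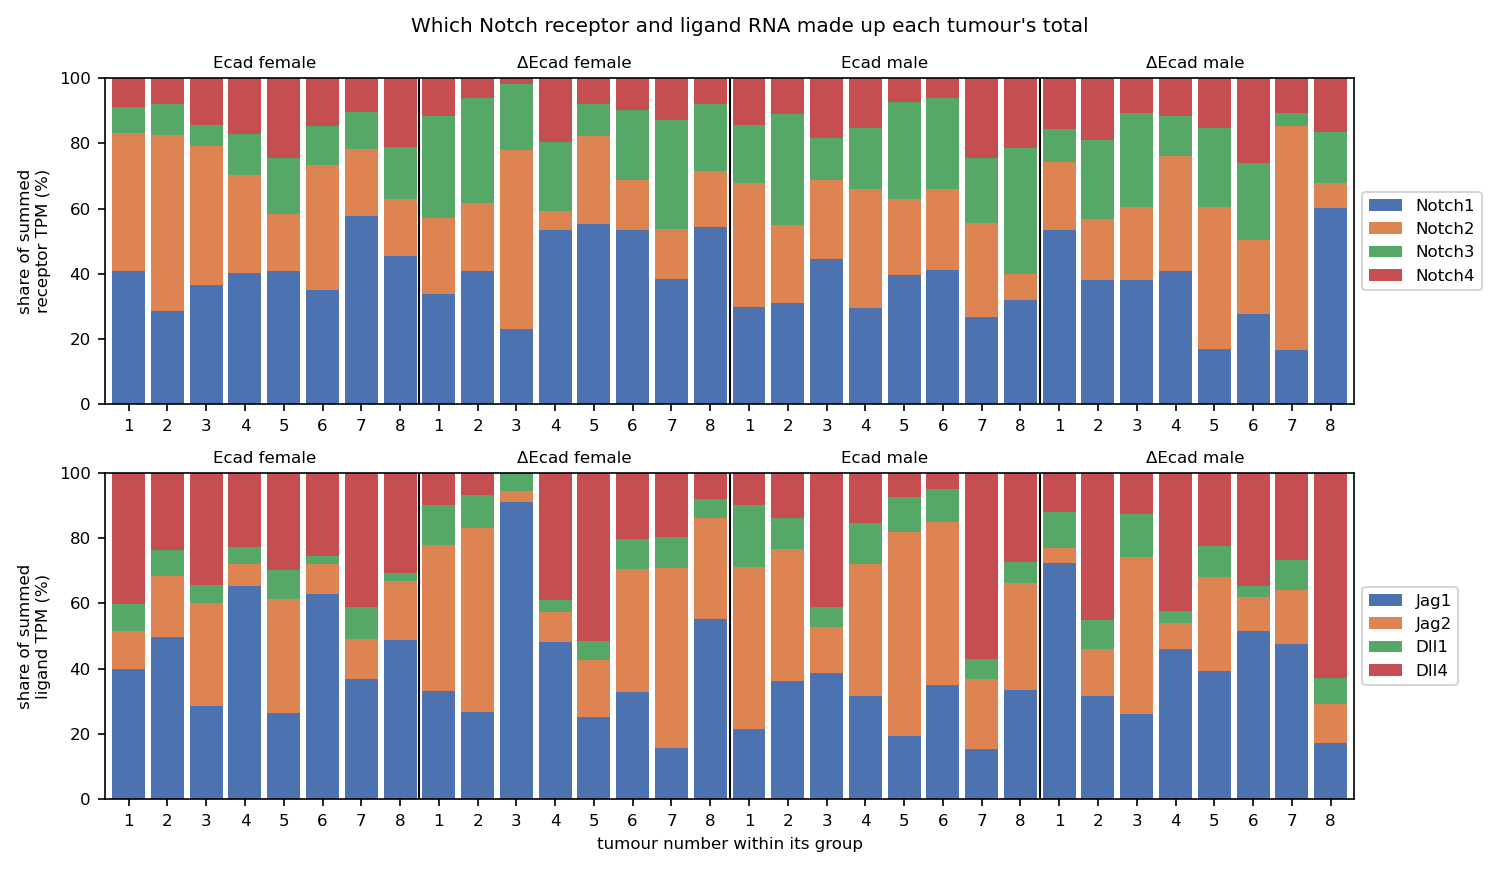
Share of the summed TPM of the 4 receptors (top) and of the 4 ligands (bottom) in each of the 32 tumours, by group, in percent. Notch1 was the leading receptor in 20 tumours, while Jag1, Jag2 and Dll4 each led the ligands in some tumours.

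The first comparison asked how ΔEcad tumours differed from Ecad tumours in females. Notch3 was higher in ΔEcad females, and it was the only gene of the 10 to pass the threshold. All 10 fold changes were above 0, with a median log2 fold change of 0.95 against -0.018 over all 17717 genes tested. The threshold was an edgeR adjusted p under 0.05 with an absolute log2 fold change over 1, and 1.2% of all genes passed it in this comparison, so 1 of 10 is too few to say anything of the genes as a group. Fewer cells of a type and less RNA per cell cannot be told apart in such bulk samples.

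Notch3 (ENSMUSG00000038146, chromosome 17, 32120820 to 32166852, GRCm38), a receptor known from vascular mural cells, ranged from 0.77 to 8.9 TPM with a median of 2.76 TPM in Ecad females and from 3.37 to 27.2 TPM with a median of 14.8 TPM in ΔEcad females. All 8 ΔEcad females lay above the Ecad median and 6 lay above the highest Ecad female, so the groups overlapped only in 2 ΔEcad tumours. The means were 3.88 ± 2.74 and 15.6 ± 8.04 TPM (SD, n = 8 each). The edgeR fit gave a log2 fold change of 1.96 (SE 0.44, 95% interval 1.06 to 2.86, adjusted p = 0.0394). The call was narrow. It was lost when any 1 of 10 of the 16 female tumours was left out, with adjusted p up to 0.104 without ΔEcad female 2, the highest tumour. The others were Ecad females 1, 2, 3, 4, 6, 7 and 8 and ΔEcad females 1 and 7, and the log2 fold change stayed between 1.80 and 2.24. It was also lost in limma and when only the female tumours were fitted, and it was kept in DESeq2 (adjusted p = 0.000481). Of all genes, DESeq2 called 1281 in this comparison, against 213 with edgeR.

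Jag2, a Jagged ligand, had a larger difference and a larger spread. It ranged from 1.0 to 10.7 TPM with a median of 2.615 TPM in Ecad females and from 0.55 to 86.2 TPM with a median of 20.4 TPM in ΔEcad females. Of the ΔEcad females 5 lay above the highest Ecad female and 1, ΔEcad female 3, below the lowest. The edgeR fit gave a log2 fold change of 2.92 (SE 0.83, adjusted p = 0.0572), which missed the threshold. Dll1, a Delta-like ligand, ranged from 0.32 to 2.73 TPM with a median of 0.915 TPM in Ecad females and from 0.76 to 15.4 TPM with a median of 4.09 TPM in ΔEcad females, with 5 ΔEcad females above the highest Ecad female. In edgeR it differed by 2.19 on the log2 scale (SE 0.65, adjusted p = 0.0695). Without the 3 tumours that stood apart, a repeat added after the data were seen, Jag2 (3.10, edgeR adjusted p = 0.0337) and Dll1 (2.35, edgeR adjusted p = 0.0461) passed beside Notch3 (1.99, edgeR adjusted p = 0.029). Of all genes, 569 passed in this repeat, against 213 as reported. DESeq2 also called Jag2 and Dll1 on all tumours (adjusted p = 0.00219 for Jag2 and 0.00612 for Dll1), where it called 1281 of all genes.

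Jag1, the other Jagged ligand, spanned 2.73 to 28.1 TPM with a median of 6.995 TPM in Ecad females and at 3.28 to 56.1 TPM with a median of 16.8 TPM in ΔEcad females (edgeR log2 fold change 1.25 with SE 0.49, adjusted p = 0.182). Notch1 was at 4.33 to 26.2 TPM with a median of 9.895 TPM in Ecad females and at 16.5 to 55.6 TPM with a median of 23.5 TPM in ΔEcad females (edgeR log2 fold change 0.99 with SE 0.36, adjusted p = 0.14). All 8 ΔEcad females lay above the Ecad median of Notch1, and 3 lay above its highest Ecad female. Hey1 was at 0.85 to 3.74 TPM with a median of 1.425 TPM in Ecad females and at 2.02 to 4.66 TPM with a median of 3.415 TPM in ΔEcad females (edgeR log2 fold change 0.90 with SE 0.40, adjusted p = 0.253). These 3 genes had an unadjusted p under 0.05 and did not pass the adjustment.

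The remaining genes differed less in females. The log2 fold change was 0.61 for Dll4 (95% interval -0.40 to 1.61), 0.57 for Notch2 (-0.37 to 1.51), 0.37 for Hes1 (-0.31 to 1.04) and 0.21 for Notch4 (-0.50 to 0.92), with edgeR adjusted p between 0.629 and 0.855. Hes1, the most abundant target, had a median of 71.3 TPM among Ecad females and of 101.3 TPM among ΔEcad females, and 4 ΔEcad females lay above the highest Ecad female.

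**Figure D2:**
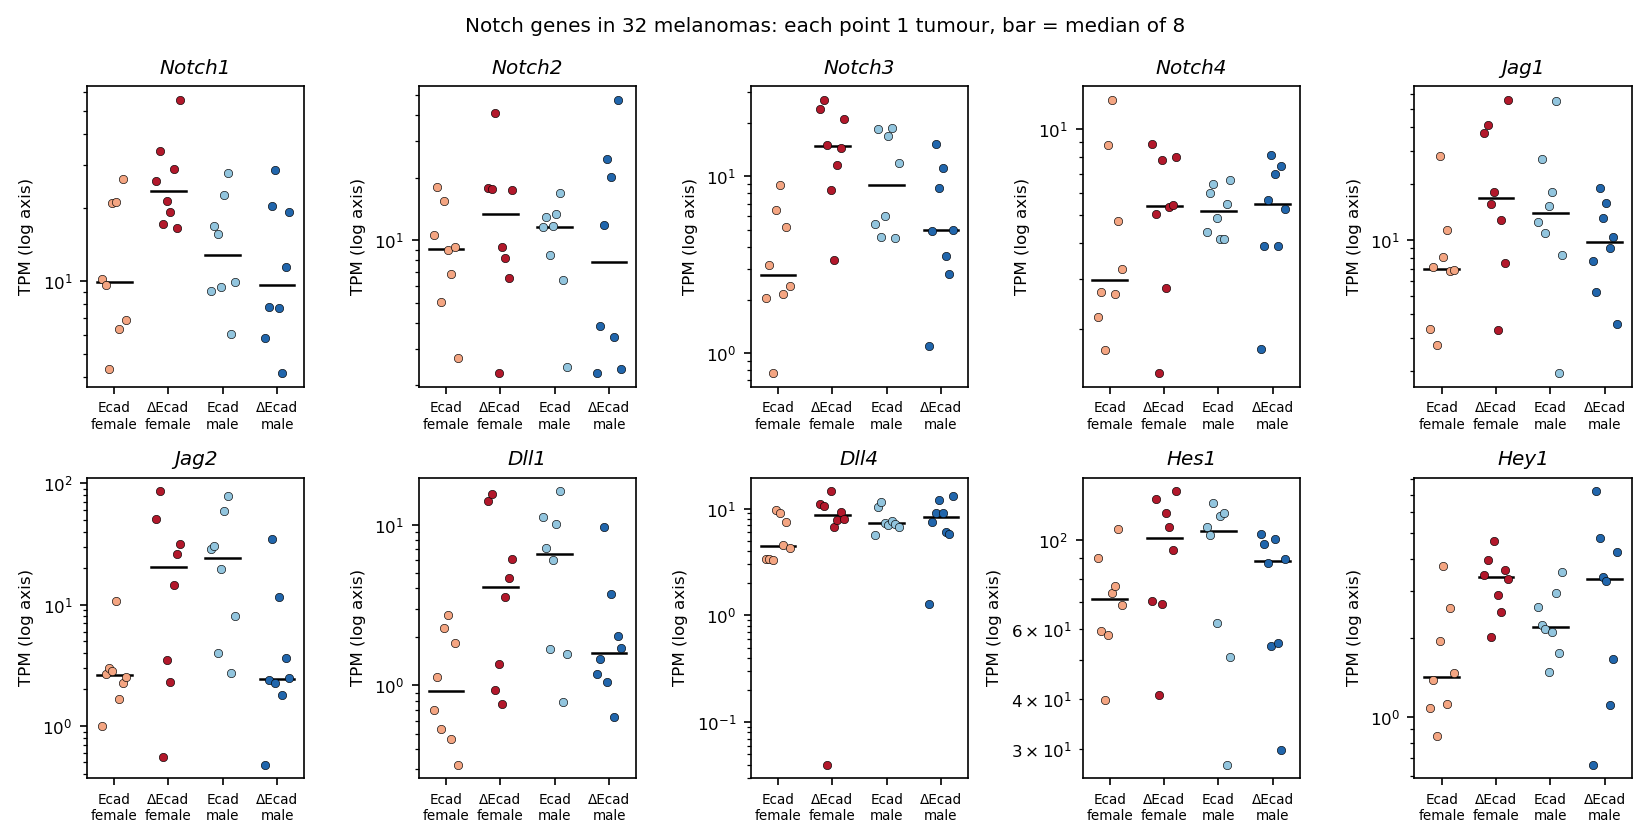
TPM of each Notch gene on a log axis in the 32 tumours, with a point per tumour and a bar at the median of each group of 8. For Notch3, 6 ΔEcad females lie above all Ecad females, and for Dll4 a single ΔEcad female lies at 0.04 TPM.

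In males the same question gave no gene past the threshold, of the 10 or of all genes (0% called; 1814 of 17717 genes had an unadjusted p under 0.05 and the smallest edgeR adjusted p was 0.28). DESeq2 called 21 genes in males and none of the 10. Notch3 was at 4.48 to 18.7 TPM with a median of 8.93 TPM in Ecad males and at 1.09 to 15.3 TPM with a median of 4.945 TPM in ΔEcad males (edgeR log2 fold change -0.57 with SE 0.43, adjusted p = 0.64). Jag2 was at 2.71 to 78.9 TPM with a median of 24.1 TPM in Ecad males and at 0.48 to 35.0 TPM with a median of 2.44 TPM in ΔEcad males, where 5 tumours lay below the lowest Ecad male (edgeR log2 fold change -1.85 with SE 0.79, adjusted p = 0.448). Dll1 had medians of 6.585 and 1.58 TPM (edgeR log2 fold change -1.14 with SE 0.63, adjusted p = 0.53), and Jag1 had medians of 13.9 and 9.72 TPM (edgeR log2 fold change -0.60 with SE 0.49, adjusted p = 0.663). The other 6 genes had positive log2 fold changes: 0.74 for Hey1, 0.46 for Notch2, 0.25 for Hes1, 0.23 for Dll4, 0.17 for Notch4 and 0.08 for Notch1. Over all genes the median log2 fold change in males was 0.113. Group medians in TPM were lower in ΔEcad males for Hes1 (88.7 against 105.5), Notch1 (9.59 against 12.7) and Notch2 (7.845 against 11.6). They were higher for Hey1, Dll4 and Notch4. Of the 8 ΔEcad males, 0 exceeded the Ecad median of Hes1, 3 that of Notch1 and 4 that of Notch2. The highest Notch2 level was in ΔEcad male 7 (47.6 TPM).

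**Figure D3:**
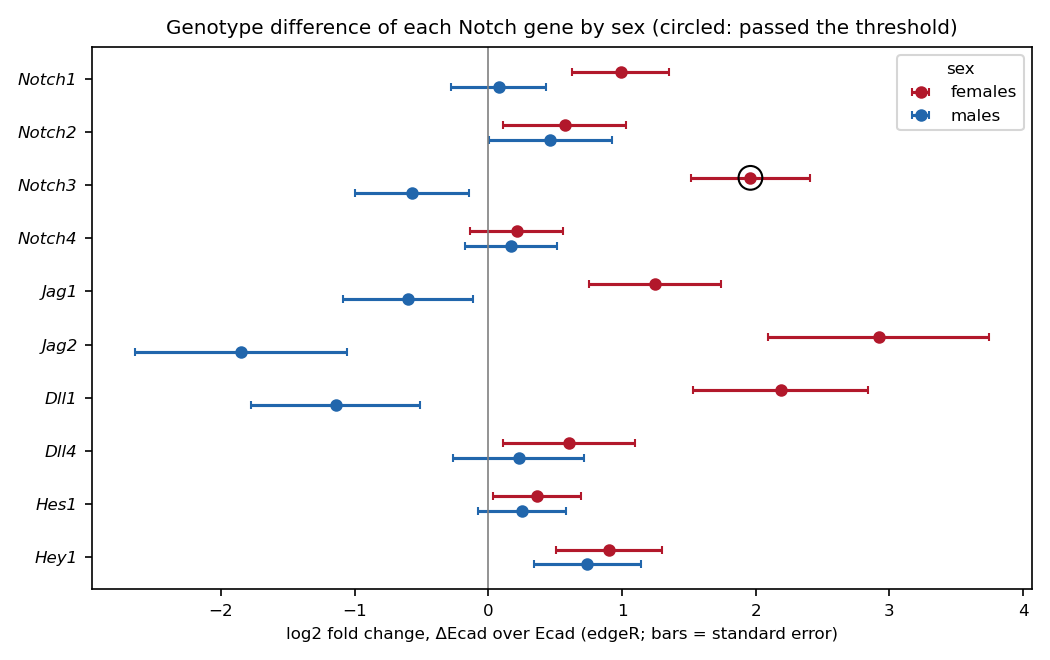
Log2 fold change of ΔEcad over Ecad for each Notch gene in females and in males, with bars for the standard error from edgeR and a circle where the threshold was passed. The circle is on Notch3 in females (1.96), and Jag2, Dll1, Jag1 and Notch3 have positive values in females and negative ones in males.

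Whether the genotype difference itself differed between the sexes was tested as an interaction, in which 0% of all genes were called (3131 had an unadjusted p under 0.05). The interaction was 4.77 for Jag2 (SE 1.15, edgeR adjusted p = 0.0526), 2.53 for Notch3 (SE 0.61, edgeR adjusted p = 0.0526), 3.33 for Dll1 (SE 0.91, edgeR adjusted p = 0.0592) and 1.85 for Jag1 (SE 0.69, edgeR adjusted p = 0.144) on the log2 scale. It was 0.91 for Notch1, 0.38 for Dll4, 0.16 for Hey1, 0.12 for Hes1, 0.11 for Notch2 and 0.04 for Notch4, and the median over all genes was -0.164. DESeq2 called Notch3, Jag2 and Dll1 here (adjusted p = 0.00238, 0.000835 and 0.00403), and edgeR called Notch3 and Jag2 with RLE size factors (adjusted p = 0.049 for both) or without a filter on low counts (adjusted p = 0.0477 for both), so the call depended on the settings. Of all genes, 1225 were called with DESeq2, 201 with RLE size factors and 284 without a filter, against 0 as reported. Leaving out 1 of the 32 tumours brought Notch3 past the threshold in 9 cases, Jag2 in 9 and Dll1 in 7. The genes called of all genes then ranged from 0 to 848.

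Averaged over both sexes, none of the 10 genes was called, against 0.0113% of all genes. Hey1 was at 0.74 in males and 0.90 in females, and its mean over the sexes was 0.82 (edgeR adjusted p = 0.343).

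Female and male tumours were also compared within each genotype. These comparisons share their tumours with the genotype comparisons and are no separate evidence. In Ecad tumours 0.0508% of all genes and none of the 10 were called, and all 10 values were below 0. Dll1 (-2.39, SE 0.66, edgeR adjusted p = 0.0988), Jag2 (-2.99, SE 0.83, edgeR adjusted p = 0.101) and Notch3 (-1.42, SE 0.43, edgeR adjusted p = 0.112) were lower in females and missed the threshold, while DESeq2 called all 3. Of all genes, DESeq2 called 1023 in Ecad tumours, against 9 with edgeR. No Ecad female reached the male median of any of these 3 genes. In ΔEcad tumours 0.0395% of all genes and none of the 10 were called, with 6 of the 10 values above 0.

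Some marker lists of other cell types had the signs of Notch3, Jag2 and Dll1, above 0 in females and below 0 in males, and other lists did not. All 10 keratinocyte markers had positive fold changes in females (9 with an unadjusted p under 0.05, median log2 fold change 5.29) and negative ones in males (median -1.70), with none called. Their summed level was 9.6 to 36240 TPM in ΔEcad females, 5.3 to 1991 TPM in Ecad females, 8.74 to 24400 TPM in Ecad males and 7.15 to 15570 TPM in ΔEcad males. Krt14, a basal keratin gene, was at 0 in at least 1 tumour of every group but ΔEcad males, where the lowest was 0.04 TPM. Of 9 hair follicle markers 8 were called higher in ΔEcad females (median 8.43), and the median in males was -0.33. Of 10 mural markers 9 had values above 0 in females (median 1.07, 5 with an unadjusted p under 0.05), and 2 were called, Acta2 (3.06, edgeR adjusted p = 0.0497) and Cnn1 (3.88, edgeR adjusted p = 0.0394), both smooth muscle genes. Their summed level was 194.9 to 574.8 TPM among Ecad females and 284.8 to 5802 TPM among ΔEcad females, where the highest tumour was ΔEcad female 3, with the lowest mural score of its group (2.87), and the next was at 598.8 TPM. Skeletal muscle markers had 10 of 10 values above 0 in females (median 2.93, 4 with an unadjusted p under 0.05) and 10 of 10 below 0 in males (median -2.41). Fibroblast markers had 10 of 10 values above 0 in females (median 1.28, 3 with an unadjusted p under 0.05) and in males (median 0.78), and Schwann markers had medians of 1.2 in females and -0.6 in males, with none of these 3 lists holding a called gene. Endothelial markers had medians of 0.67 in females and 0.19 in males, and melanocytic markers -0.60 and 0.05, with none called. Macrophage markers had medians of 0.18 in females and 0.46 in males, and T cell markers 0.31 and 0.30, with none called. The median of the mural markers in males was 0.25.

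With keratinocyte and melanocytic scores (the mean log2 CPM of each list) as covariates in the same fit, the female log2 fold change went from 2.92 to 0.44 for Jag2, from 2.19 to 0.32 for Dll1, from 1.25 to 0.49 for Jag1 and from 1.96 to 1.47 for Notch3 (edgeR adjusted p = 0.247). With endothelial and mural scores it was 0.94 for Notch3 (edgeR adjusted p = 0.632), 1.39 for Jag2, -0.02 for Dll4 and -0.13 for Notch4. Notch1 went from 0.99 to 0.83 and 0.71 in these fits, and Hey1 from 0.90 to 0.93 and 0.44. No Notch gene passed in females in either fit. Of all genes, 11 passed with the first pair of scores and 1 with the second, against 213 as reported. With so few calls, the lack of one among the Notch genes says nothing of them as a group. Since the scores themselves differ between the groups, what they and the genotype contribute cannot be told apart.

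**Figure D4:**
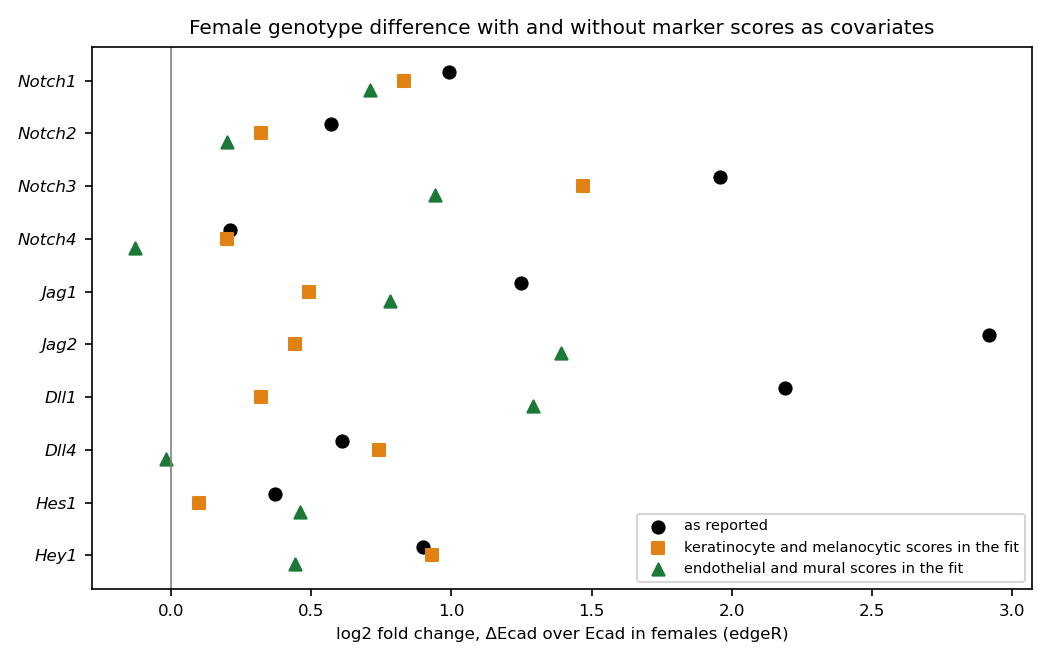
Log2 fold change of ΔEcad over Ecad in females for each Notch gene, as reported (circles), with keratinocyte and melanocytic scores in the fit (squares) and with endothelial and mural scores in the fit (triangles). Jag2 and Dll1 move from 2.92 and 2.19 to 0.44 and 0.32 with the first pair of scores, and Notch3 moves from 1.96 to 0.94 with the second pair.

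Within the groups the genes followed marker scores of different cell types. Relations were computed over the 32 tumours after each group mean was subtracted, with permutation within groups (100000 permutations, two-sided) and adjustment over 50 relations of the 10 genes with 5 scores. Genes and scores of a tumour share its library. Of the 40 relations with endothelial, mural, melanocytic and fibroblast scores, 15 had an adjusted p under 0.05 for Pearson's r, and Jag1 and Hes1 had none. For Jag1 this depended on the scale. On log2(TPM + 1) it passed with the mural (r = 0.56, adjusted permutation p = 0.00345) and fibroblast scores (r = 0.51, adjusted permutation p = 0.00508).

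Dll4, the ligand of sprouting vessels, followed the endothelial score most closely (r = 0.96, permutation p = 1e-05, the smallest that 100000 permutations can give, adjusted p = 0.000167; rho = 0.87, adjusted p = 0.00025). Without the 2 tumours farthest from the median score r was 0.83, and within the 4 groups r was 0.40 to 0.99. Notch4, an endothelial receptor, had r = 0.74 (adjusted permutation p = 0.000167) and rho = 0.68 (adjusted p = 0.0004), with r = 0.60 without those 2 tumours and 0.41 to 0.92 within groups. Hey1 had r = 0.53 (adjusted permutation p = 0.0002) and rho = 0.71 (adjusted p = 0.000333), with r = 0.66 without those 2 tumours and 0.58 to 0.87 within groups. ΔEcad female 3, whose endothelial score was -3.17 against 2.64 or more elsewhere, had 0.04 TPM of Dll4 (2 counts), 1.4 TPM of Notch4, 2.02 TPM of Hey1 and 15.1 TPM of Notch3. Dll4, Notch4 and Hey1 were thus at their group's lowest in this tumour and Notch3 was near its group median.

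Notch3 followed the mural score, with r = 0.72 (adjusted permutation p = 0.00025) and rho = 0.66 (adjusted p = 0.0005). Without the 2 farthest tumours r was 0.68, and it was 0.47 to 0.91 within groups. Hey1 (r = 0.65), Notch4 (r = 0.66), Jag2 (r = 0.60), Dll4 (r = 0.56) and Dll1 (r = 0.51) also followed this score, with adjusted permutation p between 0.000643 and 0.0155 and rho between 0.49 and 0.66. With the endothelial score Notch3 had r = 0.29 (adjusted permutation p = 0.207) and rho = 0.52 (adjusted permutation p = 0.0063). Without the 2 tumours farthest from the median endothelial score, r was 0.55. On log2(TPM + 1) the relation of Notch3 with this score passed (r = 0.48, adjusted permutation p = 0.0229).

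Notch2 alone was related to the melanocytic score, inversely, with r = -0.65 (adjusted permutation p = 0.00075) and rho = -0.66 (adjusted p = 0.0004). Without the 2 farthest tumours r was -0.63, and r was negative in all 4 groups, from -0.83 to -0.40. Its highest levels were 47.6 TPM in ΔEcad male 7, the tumour with little Dct, and 41.0 TPM in ΔEcad female 3, where the median of the 32 was 9.92 TPM. Notch2 also followed the fibroblast score (r = 0.51, adjusted permutation p = 0.0155, and rho = 0.44, adjusted p = 0.0452). The other relations that passed were those of Jag2 (r = 0.63), Dll1 (r = 0.45) and Notch1 (r = 0.35) with the endothelial score and of Notch3 with the fibroblast score (r = 0.47), with adjusted permutation p between 0.003 and 0.0363.

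Keratinocyte scores fell into 2 separate clusters, 14 tumours from -4.04 to 1.32 and 18 tumours from 4.02 to 9.77, so relations were computed within each, adjusted over 20. The low cluster held 6 Ecad females, 3 ΔEcad females, 1 Ecad male and 4 ΔEcad males, and the high cluster the other 2, 5, 7 and 4. Among the 18 tumours of the high cluster Dll1 followed the score with r = 0.90 (permutation p = 6e-05, adjusted p = 0.0012) and rho = 0.91 (adjusted p = 0.0006), and r was 0.91 without the 2 farthest tumours. Jag2 followed it with r = 0.79 (permutation p = 0.00072, adjusted p = 0.0072) and rho = 0.83 (adjusted p = 0.0014), and r was 0.81 without those tumours. Among the 14 tumours of the low cluster neither relation passed (Dll1 r = -0.56, adjusted permutation p = 0.142; Jag2 r = -0.18, adjusted permutation p = 0.895). Jag2 lay between 0.55 and 3.66 TPM in the low cluster and between 0.48 and 86.2 TPM in the high cluster, where its median was 22.9 TPM. Dll1 lay between 0.32 and 2.28 TPM and between 0.53 and 16.1 TPM. Notch2 (r = 0.67, adjusted permutation p = 0.0526) and Jag1 (r = 0.59, adjusted permutation p = 0.0617) missed the threshold in the high cluster.

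**Figure D5:**
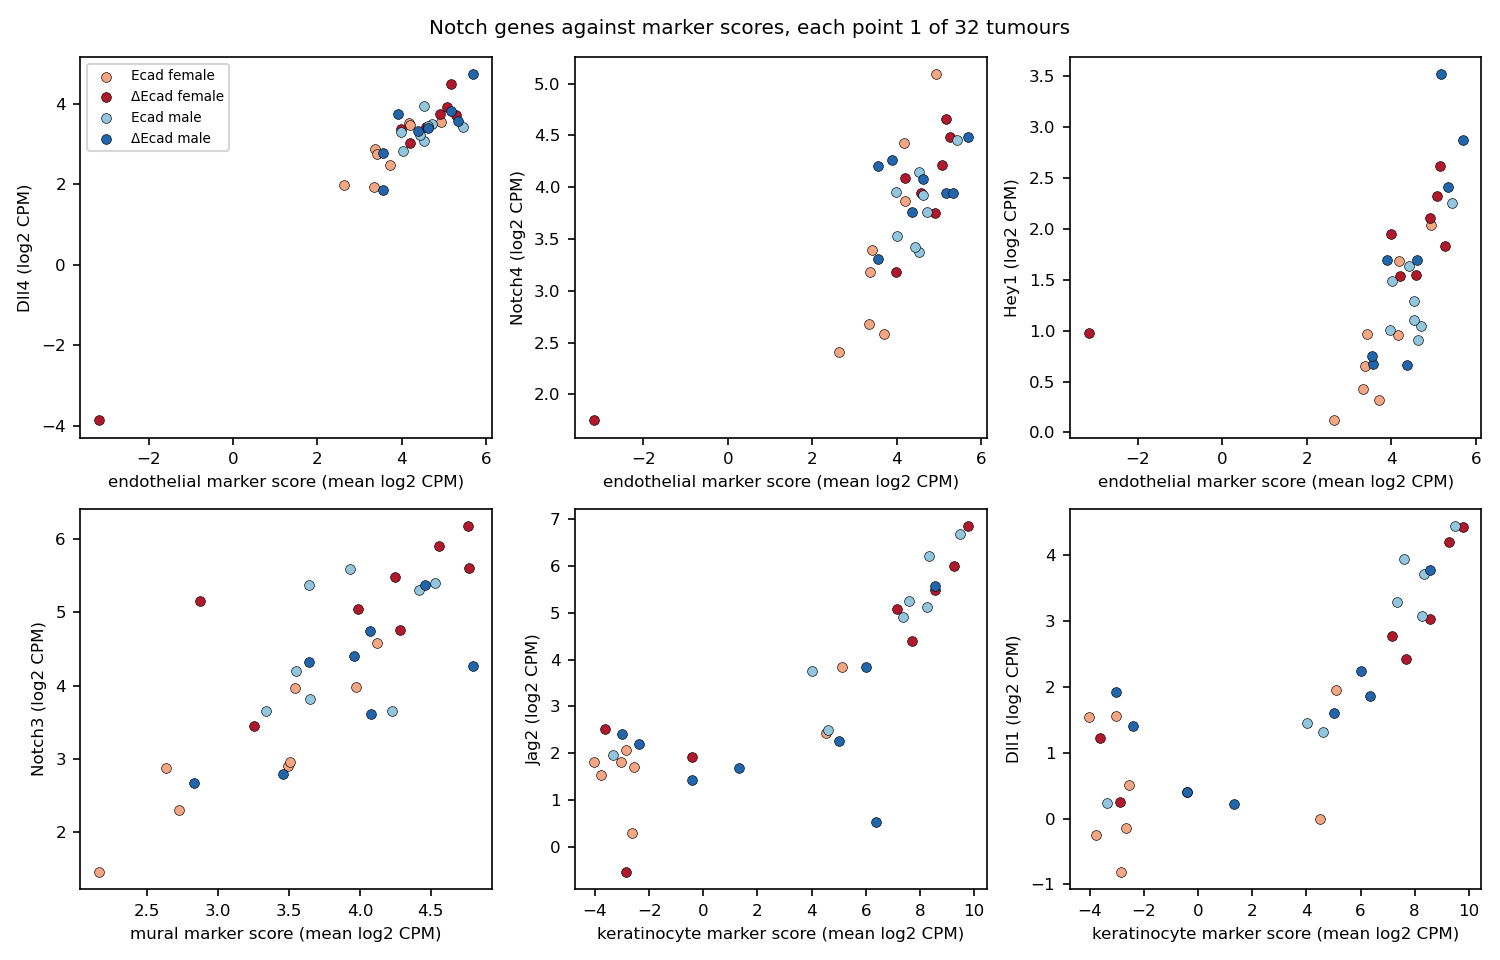
Log2 CPM of 6 Notch genes against marker scores (mean log2 CPM of 10 markers) in the 32 tumours, coloured by group. Dll4, Notch4 and Hey1 are plotted against the endothelial score, Notch3 against the mural score, and Jag2 and Dll1 against the keratinocyte score, which splits the tumours into 14 low and 18 high ones.

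The 45 pairs of Notch genes were compared with each other in the same way, and 16 had an adjusted p under 0.05 for Pearson's r. The closest pair was Jag2 and Dll1 (r = 0.86, rho = 0.87, adjusted permutation p = 0.00015 for both), with r = 0.83 without the 2 farthest tumours and 0.49 to 0.96 within groups. Notch4 and Dll4 came next (r = 0.76, rho = 0.76, adjusted permutation p = 0.00015 for both), with r = 0.66 without the 2 farthest tumours and 0.65 to 0.91 within groups. Notch3 was related to Dll1 (r = 0.63, rho = 0.68, adjusted permutation p = 0.00142 and 0.00081), to Jag2 (r = 0.62, rho = 0.68, adjusted permutation p = 0.00126 and 0.00015) and to Jag1 (r = 0.57, rho = 0.52, adjusted permutation p = 0.00349 and 0.0163). The target Hes1 was related to no other gene of the 10 at an adjusted p under 0.05.

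The genes most like each Notch gene were taken as the 3 with the highest Spearman's rho over the 32 tumours among 17679 other named genes. Dll4 was most like Robo4 (rho = 0.887), Pecam1 and Cdh5, all in the endothelial list, and Notch4 was most like Cdh5 (rho = 0.834), Pcdh12 and Tmem88. Hey1 was most like Icam2 (rho = 0.868), Sox18 and Mmrn2. Notch3 was most like Lmod1 (rho = 0.841), a smooth muscle gene, Hoxb8 and Rasl11a. Jag2 was most like Gm44323 (rho = 0.917) and the integrin genes Itgb4 and Itga3, Dll1 was most like Syt8 (rho = 0.918), Crybg1 and Tmem79, and Jag1 was most like Klf5 (rho = 0.811), Liph and Lrp4. Notch2 was most like Epg5 (rho = 0.826), BE692007 and Camk1d, and Hes1 was most like Shld1 (rho = 0.783), Pigyl and Acad12. Notch1 had the loosest match, with Sesn2 (rho = 0.721), Bcl3 and Caskin2.

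Another 42 genes of the pathway were listed, of which 41 were tested and none was called in any of the 6 comparisons. In females 17 had values above 0 and 24 below (median -0.08, 8 with an unadjusted p under 0.05), and in males 25 above and 15 below (median 0.13, 4 with an unadjusted p under 0.05). Of the 10 genes for receptor cleavage, the ADAM proteases, gamma-secretase subunits and Furin, 9 had values below 0 in females (median -0.33) and 9 above 0 in males (median 0.24). Only 1 of these 10 had an unadjusted p under 0.05 in females and 0 in males. The median over all genes was -0.018 in females and 0.113 in males.

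Nrarp, a Notch target that feeds back on the pathway, had the smallest p in females. It was at 1.17 to 26.2 TPM with a median of 6.5 TPM in Ecad females and at 0.08 to 129.4 TPM with a median of 32.1 TPM in ΔEcad females, with the lowest value in ΔEcad female 3 (edgeR log2 fold change 2.30 with SE 0.69, adjusted p = 0.0698). Its interaction with sex was 2.86 (edgeR adjusted p = 0.0988), and in Ecad tumours it was lower in females than in males by -1.74 (edgeR adjusted p = 0.195). Aph1c, a gamma-secretase subunit, had a median of 31.3 TPM among Ecad females and of 19.3 TPM among ΔEcad females (edgeR log2 fold change -1.39 with SE 0.49, adjusted p = 0.121).

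The smallest p in males belonged to Dlk1, a non-canonical ligand (6.90, SE 2.00, edgeR adjusted p = 0.375), and Rbpj (1.23, SE 0.45, edgeR adjusted p = 0.427). Each had its highest level in ΔEcad male 7, at 210.1 TPM for Dlk1 against a group median of 0.135 TPM and at 70.1 TPM for Rbpj against a group median of 7.465 TPM. Dlk1 (5.71, edgeR adjusted p = 0.195) and Lfng, a Notch glycosyltransferase (0.74, edgeR adjusted p = 0.524), had the smallest p in the mean of both sexes. The highest female level of Dlk1 was 51.6 TPM in ΔEcad female 3, against a group median of 0.075 TPM, so in both sexes the highest Dlk1 level was in a tumour that stood apart. Neurl1a, a ubiquitin ligase, had the smallest p between the sexes in ΔEcad tumours (2.22, edgeR adjusted p = 0.484). Mib1, the ubiquitin ligase for ligand endocytosis, stood beside Nrarp in Ecad tumours (0.69, edgeR adjusted p = 0.208). Neurl1a had the smallest p for the interaction (3.94, edgeR adjusted p = 0.061).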

How the data were processed

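The authors made stranded poly(A) libraries, sequenced them in pairs of reads, mapped the reads with STAR to GRCm38 (mm10, GENCODE M13) and deposited raw counts per gene and TPM (RNA abundance per length, scaled to the library). Their methods mention ComBat for batches where applicable, and do not state its use on these tables. In the 996 genes above 2000 counts throughout, count and TPM differed only by gene length, within 0.0686%. Counting is not stated to use strand, and Notch1, Notch2, Notch3, Dll1 and Dll4 share exonic bases with other genes, so their counts are uncertain to that extent. GENCODE M21 named 50376 of 50600 genes, and 224 were without a symbol.

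Groups came from the labels. Counts were tested with edgeR 4.0.16 (quasi-likelihood, robust, two-sided, TMM, filterByExpr) in 1 model of 32 tumours and 17717 genes, with Benjamini-Hochberg adjustment over all of them. Called genes had an adjusted p below 0.05 and a fold change above 2-fold in either direction, that is, 1 on the log2 scale, and SE was derived from the test statistic. Levels on the log2 CPM scale used a prior count of 1. Relations of levels used Python 3.11.15 and scipy 1.17.1, and figures used matplotlib 3.10.9. The scripts were tested on simulated data. Alternatives were DESeq2 1.42.0, limma 3.58.1 in R 4.3.3 (voom, or log2(TPM + 1)), RLE factors, no filter, only the groups compared, adjusted p alone, marker scores as covariates, the tumour number as a block, and each tumour left out.

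The 10 genes, the pathway and marker lists, the tests and the promoter motifs were chosen with earlier results of these data known. Of the other pathway genes, the 2 with the smallest p in each comparison are named, except 1 that is not reported here, and for each Notch gene the 3 genes most like it. The authors' own comparisons were not used. Totals of 24036333 to 63923086 counts set the precision, and the reads carry no molecular identifiers.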

Additional observations from a re-analysis of the deposited data

Results flagged for a closer look

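Dll4 in ΔEcad female 3 stood apart from the other 7 tumours of its group, at -3.86 on the log2 CPM scale and 0.04 TPM (2 counts) against a group median of 8.64 TPM. The gap to the nearest tumour was 0.824 of the group's range, above the 95% critical value of Dixon for 8 tumours. The 40 sets of values, 10 genes in 4 groups, gave this 1 case, where chance gives about 5% of sets. The endothelial marker score of the tumour was -3.17, and Cdh5 was at 0.02 TPM.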

How the results depend on the processing

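Of 344 values of single genes and relations under the alternatives other than leaving out a tumour, 307 kept their direction and their side of the threshold, 14 newly passed it, 6 no longer did and 17 changed sign. The 6 were Notch3 in females, at 1.47 with keratinocyte and melanocytic scores as covariates, 0.94 with endothelial and mural scores, 2.11 with voom, 1.77 with log2(TPM + 1), 1.99 with only the groups compared and 2.10 with the replicate block. The sign changes were all in values that had not passed. With keratinocyte and melanocytic scores they were Notch2 in males (-0.15) and the interactions of Notch4 (-0.07) and Hes1 (-0.39). With endothelial and mural scores they were Notch4 (-0.13) and Dll4 (-0.02) in females and the interactions of Notch2 (-0.19), Notch4 (-0.33), Dll4 (-0.12) and Hey1 (-0.14). In males they were Notch1 (-0.11), Notch2 (-0.05) and Hes1 (-0.16) with voom, and Notch1 (-0.24), Notch2 (-0.10), Notch4 (-0.04), Dll4 (-0.13) and Hes1 (-0.14) with log2(TPM + 1). The cause was not tested.

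The number of Notch genes called in females, 1 as reported, was 3 with DESeq2 and without the 3 tumours that stood apart, and 0 with voom, log2(TPM + 1), either pair of scores, only the groups compared and the replicate block. It was 3 with DESeq2 between the sexes in Ecad tumours. For the interaction, with 0 as reported, it was 3 with DESeq2, 2 with RLE factors and 2 without a filter. Of all genes, 213 were called in females as reported, 1281 with DESeq2, 555 without a filter, 322 with RLE factors, 569 without the 3 tumours that stood apart, 11 with keratinocyte and melanocytic scores and 1 each with endothelial and mural scores, voom, log2(TPM + 1), only the groups compared and the replicate block. In males 21 were called with DESeq2 and 1 with keratinocyte and melanocytic scores, against 0. In the mean of both sexes, with 2 as reported, 66 were called with DESeq2, 4 with keratinocyte and melanocytic scores, 0 with voom and 1 each without a filter, with endothelial and mural scores, with the replicate block and without the 3 tumours. Between the sexes, Ecad tumours gave 9 as reported, 1023 with DESeq2, 115 with voom and 15 with keratinocyte and melanocytic scores, and ΔEcad tumours gave 7 as reported, 24 with DESeq2 and 0 with only the groups compared. The interaction gave 0 as reported, 1225 with DESeq2, 284 without a filter, 201 with RLE factors and 2 with keratinocyte and melanocytic scores.

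With 1 tumour left out, the Notch genes called in females numbered 0 to 3 and those for the interaction 0 to 3. All genes called numbered 1 to 695 in females, 1 to 3 in the mean of both sexes, 8 to 21 between the sexes in Ecad tumours and 0 to 848 for the interaction. Values that changed sign were those of Dll4 (-0.02 to 0.38), Notch1 (-0.12 to 0.26) and Notch2 (-0.04 to 0.62) in males and the interactions of Hes1 (-0.03 to 0.33), Hey1 (-0.02 to 0.54), Notch2 (-0.25 to 0.61) and Notch4 (-0.10 to 0.40). The tumour numbers do not pair the tumours: the correlation of same-numbered tumours ranged from -0.547 to 0.423. The replicate block therefore bears on no pairing, and it took the genes called in females from 213 to 1. All 15 relations with marker scores kept sign and call on log2(TPM + 1), which gave 21 of 40. Those of Jag1 and Notch1 with the mural and fibroblast scores passed only there. So did those of Notch3 with the endothelial score and of Notch4 with the fibroblast score.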
